A study of Mus musculus with 16 samples.

Results

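DNA transposon peaks were the peaks of sperm RNA whose centre lay in a repeat of the class DNA, as the authors' detailed annotation of each peak names it. There were 569 of them among 159135 peaks in 8 lists. A further 2 peaks carried the doubtful class DNA? and were left out. The lists came from the sperm of 4 Dnmt2-/- C57BL/6 males, aged 6 to 8 months, that lack the RNA cytosine methyltransferase Dnmt2 (gene Trdmt1). Males 1 and 2 were kept on a normal diet (ND), and males 3 and 4 on a high fat diet (HFD) with 21% butter. Each male gave a DNA-bound RNA library (D), freed from sperm DNA by DNase, and a free RNA library (F), so D2 is the DNA-bound library of male 2. No value below compares Dnmt2-/- with wild type, since the 8 libraries of wild-type males are not used here. The males carry the mutation in every cell, and each group held 2 males.

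DNA transposons move by cutting their own DNA out of the genome and pasting it elsewhere, with a transposase that binds the inverted repeats at the ends of the element. Most copies in the mouse genome are old, broken or too short to encode a transposase, and no family is known to be active in the laboratory mouse. The hAT superfamily (Charlie, Tip100, Blackjack) and the Tc1/mariner superfamily (Tigger, Mariner, Tc2) make up most of them, and short elements such as URR1A, URR1B, MER20 and MER2 rely on the transposase of larger relatives. Copies lie in introns and between genes, where they can be carried along in longer transcripts.

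The letters of 10 of these peaks were read from GENCODE M21 transcripts or RefSeq promoter windows of the same build (GRCm38), and 3 are shown. Of the 10, 8 lay wholly in an annotated exon without touching a coding exon or UTR. The others, a RCHARR1 and a MER53 copy, were looked up by name, and 1 chromosome was not searched. The first pair are copies of URR1B, the most frequent name. They come from different chromosomes and fractions and show what peaks of the same name share. The D2 copy lay at chr6:45530666-45531065, of which the central stretch 45530716 to 45531015 is printed, in an exon of Gm43876, a transcript of the class TEC, not yet proven by experiment. The F3 copy lay at chr13:44249909-44250134 in an exon of Gm29676, a long intergenic noncoding RNA, and is printed on the minus strand so that both copies read the same way. Capitals mark aligned runs of at least 6 equal bases.

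URR1B, D2, plus strand: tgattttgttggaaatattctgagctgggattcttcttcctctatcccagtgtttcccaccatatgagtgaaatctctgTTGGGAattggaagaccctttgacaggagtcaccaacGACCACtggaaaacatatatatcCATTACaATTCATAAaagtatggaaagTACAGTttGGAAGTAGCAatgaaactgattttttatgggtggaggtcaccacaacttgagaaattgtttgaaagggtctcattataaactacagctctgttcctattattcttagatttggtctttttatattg
URR1B, F3, minus strand: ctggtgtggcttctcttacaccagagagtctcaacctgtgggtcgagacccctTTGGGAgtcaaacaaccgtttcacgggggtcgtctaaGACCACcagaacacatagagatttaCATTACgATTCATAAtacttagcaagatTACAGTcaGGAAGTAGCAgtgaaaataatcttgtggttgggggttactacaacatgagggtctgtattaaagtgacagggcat

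A local alignment joined bases 33 to 240 of the D2 stretch with bases 10 to 215 of the F3 stretch, and 144 aligned bases were equal, 71.3% of those aligned without a gap. Its score of 134 was the highest of the 45 pairs among the 10 sequences, and the next pair, a MER2B and a MER53 copy, scored 34. The longest equal run was 10 bases.

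The other sequence belongs to a MER53 copy under a D4 peak of 32 tags at chr11:64590489-64590678. MER53 is a short palindromic hAT element. The annotation places a predicted miRNA gene, Gm24275, within the peak at 64590495 to 64590640 on the minus strand, and that strand is printed. Capitals mark bases that can pair between arm 7 to 64 and arm 86 to 138.

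MER53, Gm24275, D4, minus strand: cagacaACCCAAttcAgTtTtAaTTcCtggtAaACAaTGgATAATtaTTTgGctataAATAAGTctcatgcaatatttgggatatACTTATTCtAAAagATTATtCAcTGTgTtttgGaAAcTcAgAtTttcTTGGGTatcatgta

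The arms held 35 pairs, 18 mismatches and 5 unpaired gap bases. They were the best match over all points at which the sequence could be split. Other sequences were not searched in the same way, so whether this pairing exceeds chance was not tested. Base composition of the 10 sequences ran from 28.5% to 45.1% GC, with a median of 34.2%. The median over all 32851 RefSeq promoter windows of the build was 52.7%. Those windows are not a matched control, and LINE, SINE and LTR peaks were not read.

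Depth differed between the lists. They held 3427 (D1), 25406 (F1), 49918 (D2), 7635 (F2), 22726 (D3), 10143 (F3), 21171 (D4) and 18709 (F4) peaks, and the tags (counted read ends, inferred from the steps of the score) in all peaks of a library ranged from 964693 to 9913375. F1 stood apart, since 46.6% of its peaks lay in exons, against 7.10% in F3 and 0.257% to 0.615% in the other 6 libraries. Peaks in the exons of 7 of 10 sperm genes (among them Prm1, Prm2, Tnp2 and Odf1) were found in F1, and in none of the other 7 libraries. F1 also held exon peaks in 6 of 10 genes of blood and epithelium (Hba-a1, Krt5, Krt14, Epcam, Cdh1, Lcn5), F4 in 1 (Hba-a1) and the other 6 in none. The part of these cells in the results was not tested. Of all 20738 genes named in the lists, 29.9% had a peak outside introns and intergenic positions in F1. This was 4.84% in F3 and 0.251% to 1.46% in the other 6 libraries, so 0 of 10 genes says little there. The annotation names repeats only in introns and between genes (0 of 83465 repeat-named peaks lay elsewhere), so a library rich in exon peaks has a lower share of any repeat. Shares were therefore also taken over intron and intergenic peaks, a choice made after seeing the data.

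The 569 peaks fell into 11 families and 108 repeat names, of which 40 were seen once. hAT-Charlie held 334 peaks (58.7%) and TcMar-Tigger 131 (23.0%). They were followed by hAT-Tip100 with 48, hAT-Blackjack with 25, hAT with 9, and TcMar-Mariner and TcMar-Tc2 with 8 each. PiggyBac held 3, all copies of Looper in introns (Ylpm1, Dlg1, Fam185a), in D2 and D4. The unplaced DNA, MULE-MuDR and hAT? families held 1 each.

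The order of the 3 leading families was the same in all 8 libraries. hAT-Charlie made up 69.6% of the DNA transposon peaks in D1, 61.0% in D2, 59.3% in D3 and 52.9% in D4. In the free RNA it made up 60% in F1, 63.4% in F2, 64.3% in F3 and 52.2% in F4. D and F thus overlapped, with means of 60.7% ± 6.88 in D and 59.97% ± 5.52 in F (SD, n = 4 each). TcMar-Tigger ran from 16.4% (D2) to 29.9% (D4) in D and from 17.1% (F2) to 26.1% (F4) in F. hAT-Tip100 ran from 5.71% (F1) to 11.96% (F4). With 23 peaks in D1 the 95% Wilson interval of the hAT-Charlie share was 49.1% to 84.4%, while 177 peaks in D2 gave 53.7% to 67.9%, and such intervals cover counting error only.

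**Figure D1:**
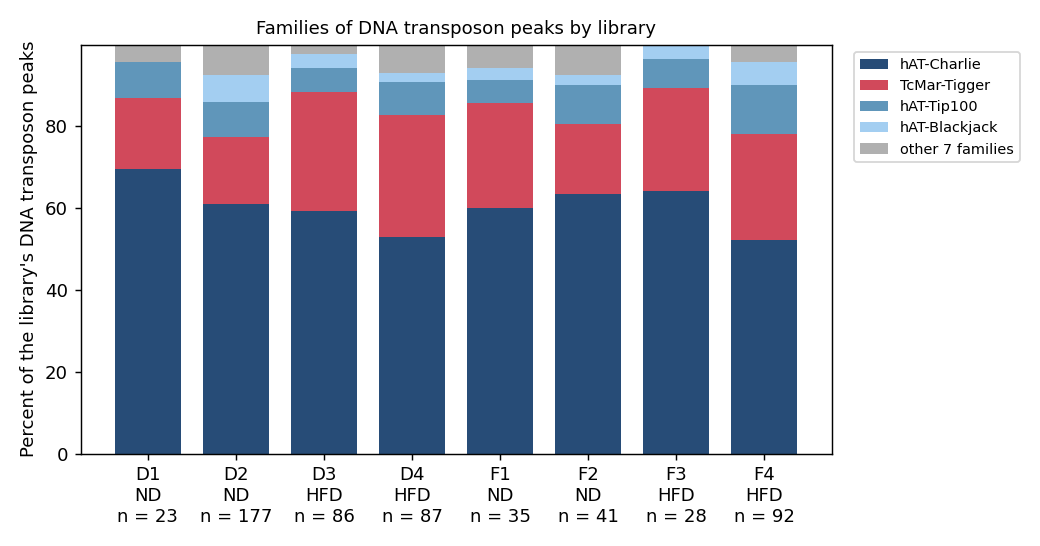
Percent of each library's DNA transposon peaks (vertical axis, 0 to 100%) in the 4 largest families and in the other 7, stacked by library, with diet and number of peaks below each bar. hAT-Charlie is the largest block in all 8 libraries (52.2% to 69.6%) and TcMar-Tigger the next.

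In introns lay 163 of 334 hAT-Charlie peaks (48.8%), 66 of 131 TcMar-Tigger peaks (50.4%) and 13 of 48 hAT-Tip100 peaks (27.1%). Within 10000 bases of a gene start lay 54 hAT-Charlie peaks (16.2%), 11 TcMar-Tigger peaks (8.40%) and 3 hAT-Tip100 peaks (6.25%). The positions of hAT-Tip100 peaks were not tested against the other families. By male, hAT-Charlie had 27.0%, 12.7%, 21.7% and 12.8% of its peaks near a gene start (males 1 to 4) and TcMar-Tigger 7.69%, 2.78%, 6.25% and 14.0%. The difference, 10.9 ± 8.95 percentage points (SD, n = 4), had the same sign in 3 of 4 males and did not pass the exact sign-flip permutation test (p = 0.25, 0.375 after adjustment over 3 measures). That test has 16 sign patterns, so its smallest two-sided p is 0.125, and no comparison over 4 males can reach 0.05.

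Among the names, URR1B led with 58 peaks, followed by URR1A (49), MER2 (42) and RCHARR1 (33). URR1A, URR1B and RCHARR1 are Charlie-like elements named from rodents, and MER2 is a short element of the Tigger group. Tigger7 had 20 peaks, Charlie1a 17, MER20 16, MER58A and MER58B 13 each, and MER5A, MER5A1, MER5B and Tigger1 10 each.

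URR1B had 0 peaks in D1, 19 in D2, 8 in D3 and 7 in D4. It had 7 in F1, 3 in F2, 5 in F3 and 9 in F4. As a share of annotated peaks it was higher in F than in D of every male. In D it was 0% (D1), 0.0381% (D2), 0.0353% (D3) and 0.0332% (D4), and in F it was 0.0276% (F1), 0.0396% (F2), 0.0495% (F3) and 0.0483% (F4). The mean was 0.0266% ± 0.0179 in D and 0.0412% ± 0.0101 in F (SD, n = 4 each). The counts are small, and 0 of 3416 peaks in D1 allows a share of up to 0.0878%, above all 4 F values. The difference of 0.0146 percentage points gave p = 0.125 in the exact sign-flip permutation test, the smallest it can give, and 0.551 after Benjamini-Hochberg adjustment over 225 names. Over intron and intergenic peaks URR1B was again higher in F of 4 males, by 0.0351 ± 0.0443 points, with F1 the highest at 0.100%. The same exact test gave p = 0.125, and the unpaired exact permutation test p = 0.0286, the smallest it can give and not adjusted over names. As a share of the DNA transposon peaks it was higher in F of 3 males only, since in male 2 it was 10.7% in D2 and 7.32% in F2.

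Of the 225 repeat names of any class with at least 40 peaks, 3.11% were higher in F of all 4 males and 19.6% lower in F of all 4. Over intron and intergenic peaks these were 6.67% and 15.6%. DNA transposons supplied 3 of the 225 names (URR1B, URR1A and MER2), and URR1B was the only one of the 3 with the same sign in all males. URR1A was at 30.4% of the DNA transposon peaks in D1 (7 of 23) and between 3.57% and 10.9% in the other 7 libraries. MER2 was higher in D in 3 of 4 males, with counts of 3, 13, 6 and 7 in D1 to D4 and of 3, 1, 1 and 8 in F1 to F4.

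Tigger7, an element of the Tigger group, leaned to D, with 18 peaks in D and 2 in F. All DNA transposon peaks were 373 in D and 196 in F, so counts of most names lean to D. It had 1, 5, 8 and 4 peaks in D1 to D4 and 0, 0, 0 and 2 in F1 to F4. Of the DNA transposon peaks this was 4.35%, 2.82%, 9.30% and 4.60% in D against 0%, 0%, 0% and 2.17% in F, so D and F did not overlap. How many of the 108 names were apart in this way was not counted. With 0 of 35 (F1), 0 of 41 (F2) and 0 of 28 (F3), shares of up to 8.57%, 7.32% and 10.7% remain possible in these libraries. It fell below the minimum of 40 peaks and was left out of the adjusted tests over names. The exact sign-flip permutation test of its share of the DNA transposon peaks gave p = 0.125, the smallest possible, with D higher in 4 of 4 males. On the same share MER5B, with 9 peaks in D and 1 in F, was also higher in D of 4 of 4 males. MER58A, with 7 peaks in D and 6 in F, was higher in F of 4 of 4 males. A sign shared by all males was thus not particular to Tigger7. The strongest Tigger7 peak held 64 tags (D4, chr16:87076744-87076933, nearest gene N6amt1). The stronger Tigger7 peak of F4 held 24 tags in intron 1 of Shq1, whose product helps assemble box H/ACA ribonucleoproteins.

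**Figure D2:**
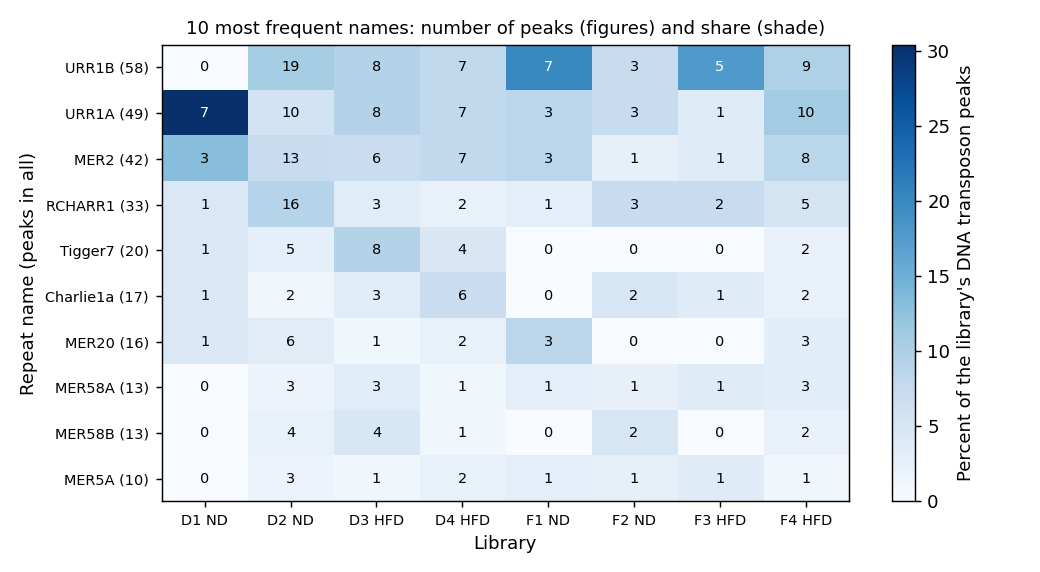
The 10 most frequent names (rows, with their peaks in all) by library (columns). Each cell gives the number of peaks, and its shade the percent of the library's DNA transposon peaks. URR1B has 0 peaks in D1 and 3 to 19 elsewhere, and Tigger7 has 18 peaks in D and 2 in F.

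The next comparison asked whether RNA from DNA transposons was bound to DNA or free. The DNA transposon peaks were 23, 177, 86 and 87 in D1 to D4 and 35, 41, 28 and 92 in F1 to F4. Of all annotated peaks, this was 0.673% (D1), 0.355% (D2), 0.379% (D3) and 0.412% (D4). In the free RNA it was 0.138% (F1), 0.541% (F2), 0.277% (F3) and 0.494% (F4). F was lower than D in males 1 and 3 and higher in males 2 and 4.

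The means were 0.455% ± 0.147 in D and 0.362% ± 0.189 in F (SD, n = 4 each), and the difference of −0.0926 ± 0.318 percentage points was smaller than its spread (exact sign-flip permutation test, p = 0.75). F1 and F3, the libraries with the most exon peaks, were the lowest. Over intron and intergenic peaks the shares were 0.701%, 0.364%, 0.390% and 0.423% in D1 to D4 and 0.501%, 0.555%, 0.333% and 0.505% in F1 to F4. The means were then 0.469% in D and 0.473% in F (difference 0.00399 ± 0.170, p = 1, exact). Of DNA, LINE, SINE and LTR peaks together, DNA transposons were 1.44% ± 0.464 in D and 1.35% ± 0.396 in F (exact p = 0.875).

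**Figure D3:**
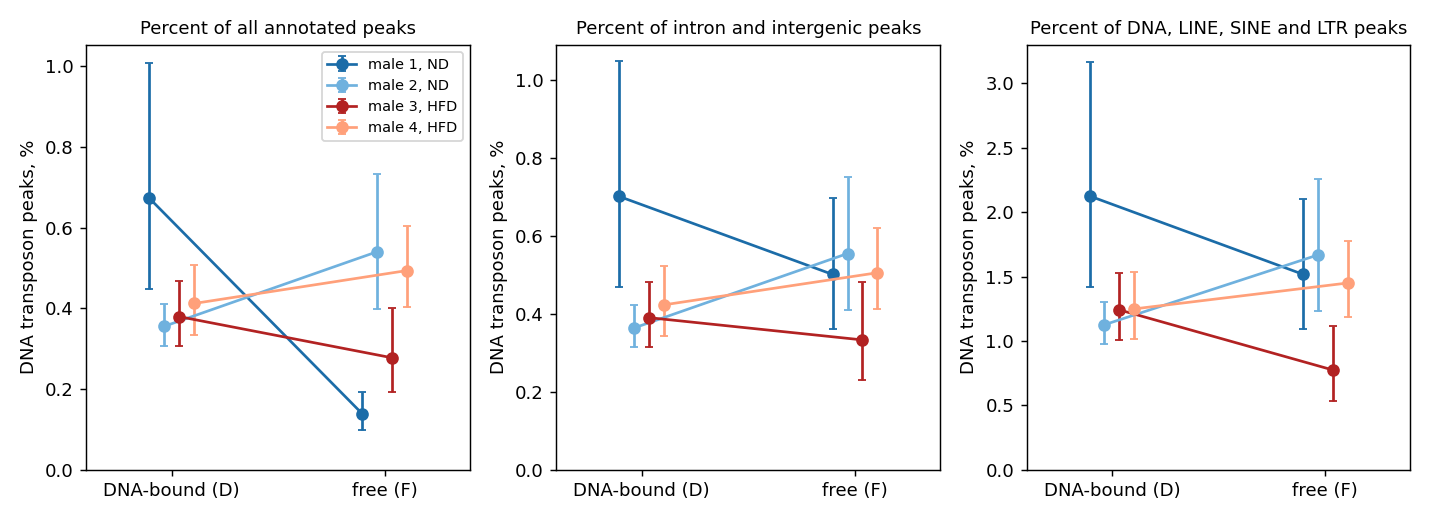
DNA transposon peaks as percent of all annotated peaks, of intron and intergenic peaks, and of DNA, LINE, SINE and LTR peaks (vertical axes start at 0). Each line joins D and F of a male, and bars are 95% Wilson intervals; in each panel 2 lines fall and 2 rise.

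None of the 3 DNA transposon families with at least 40 peaks had the same sign of F minus D in all 4 males. hAT-Charlie was 0.282% ± 0.124 of annotated peaks in D and 0.215% ± 0.111 in F (exact sign-flip permutation p = 0.75). TcMar-Tigger was 0.102% ± 0.0298 in D and 0.0815% ± 0.0392 in F (p = 0.5), and hAT-Tip100 was 0.0360% ± 0.0158 and 0.0349% ± 0.0249 (p = 0.875, all exact, n = 4). Of the 21 families of any class, 0% were higher and 9.52% lower in F of all males. Over intron and intergenic peaks 14.3% were higher and 9.52% lower, and again none was a DNA transposon family.

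By diet, the D libraries held on average 0.396% DNA transposons among annotated peaks on HFD and 0.514% on ND, and the F libraries 0.386% and 0.339%. D1 lay above and D2 below both HFD libraries of D, while F1 lay below and F2 above both HFD libraries of F. Neither difference passed (exact permutation p = 1 in both fractions, n = 2 per diet, smallest p 0.333). Of DNA, LINE, SINE and LTR peaks, the F libraries did not overlap, at 1.52% and 1.67% on ND against 0.775% and 1.45% on HFD (exact permutation p = 0.333, the smallest possible). This direction was opposite to that over annotated peaks. How many other repeat classes or families were apart on this denominator was not counted.

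As a share of annotated peaks, none of the 3 families had HFD and ND libraries apart in either fraction, where 23.8% of all 21 families were apart in D and 19% in F. URR1B was apart in F, with 0.0276% and 0.0396% on ND and 0.0495% and 0.0483% on HFD. Over intron and intergenic peaks this turned, with URR1B at 0.100% (F1), 0.0406% (F2), 0.0594% (F3) and 0.0494% (F4), so that the diets overlapped. hAT-Charlie was apart in F on that scale, with 0.300% and 0.352% on ND against 0.214% and 0.264% on HFD. The families L1, ERVL, MIR, ID and rRNA were apart in F on that scale too, so this was not particular to hAT-Charlie. Of annotated peaks, none of the 3 names was apart in D. Over all 225 names 36.4% were apart in D and 20.9% in F.

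Of the 569 peaks, 270 lay in introns (47.5%) and 299 between genes. The intron share was 39.1% (D1), 50.3% (D2), 36.05% (D3) and 50.6% (D4), and 57.1% (F1), 51.2% (F2), 46.4% (F3) and 46.7% (F4). LINE peaks of the same libraries were at 26.7%, 24.7%, 26.8% and 25.6% in D1 to D4 and at 57.3%, 25.5%, 45.7% and 22.7% in F1 to F4. DNA transposon peaks were thus more often intronic than LINE peaks in 7 libraries, by 15.3 ± 11.3 percentage points averaged over both fractions of a male, in 4 of 4 males. Against LTR peaks the difference was 15.8 ± 8.47 points in 4 of 4 males. Against SINE peaks it was −6.24 ± 12.9 points, higher in 2 of 4. Against LINE, SINE and LTR together it was 11.2 ± 12.2 points in 3 of 4 males (exact p = 0.25). The first 2 differences gave p = 0.125, the smallest possible, and 0.3 after adjustment over 24 comparisons (exact sign-flip permutation tests, n = 4 males).

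In D alone the excess over LINE, SINE and LTR peaks was 8.82, 23.7, 6.39 and 22.2 points in males 1 to 4 (mean 15.3 ± 8.95). In F it was −9.00, 21.2, −3.53 and 19.7 points. The negative values belonged to F1 and F3, where the other repeats were at 66.1% and 49.96% in introns, against 26.5% to 30.3% in the other 6 libraries.

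Within 10000 bases of a gene start lay 73 DNA transposon peaks (12.8%). They were there more often than LINE peaks in 4 of 4 males (5.16 ± 2.97 points) and less often than SINE peaks in 4 of 4 (−8.71 ± 1.01 points). Both gave p = 0.125 and 0.3 after adjustment (exact sign-flip permutation, n = 4). Against LTR peaks the difference was −0.743 ± 2.02 points, higher in 2 of 4 males. Against LINE, SINE and LTR together it was 0.782 ± 1.21 points, higher in 3 of 4 males (same exact test, p = 0.375). The median distance to a gene start was 51606 bases.

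**Figure D4:**
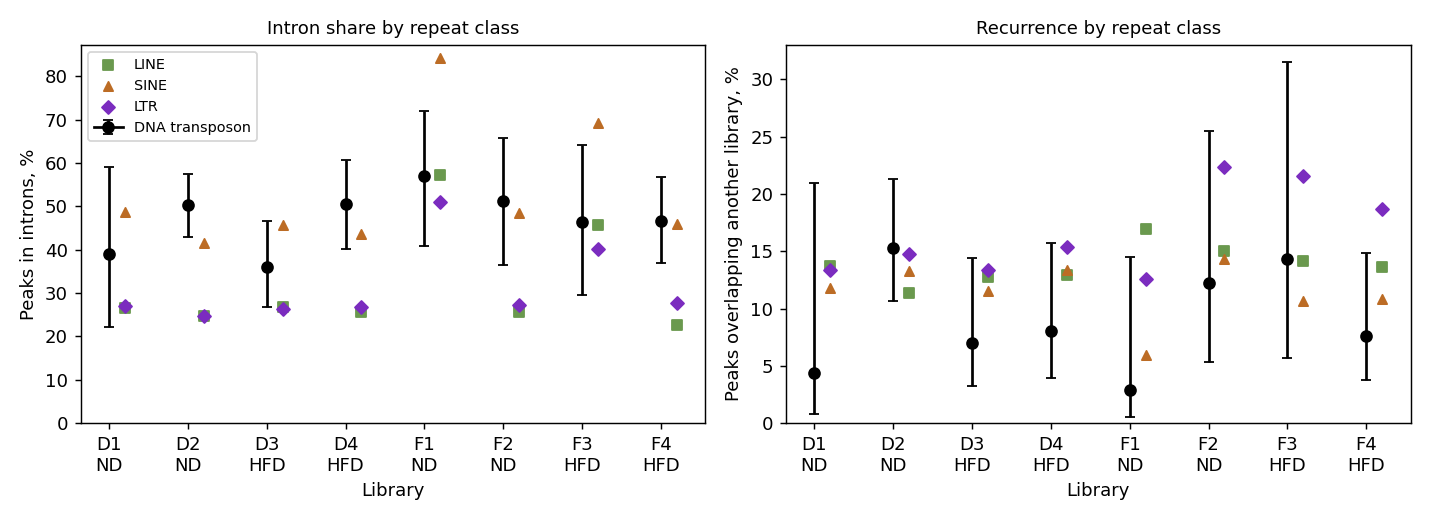
Left, percent of DNA transposon, LINE, SINE and LTR peaks in introns by library. Right, percent that overlap a peak of another library. Black points are DNA transposon peaks with 95% Wilson intervals. In introns they sit above the LINE and LTR points in 7 and 8 libraries. On the right they are below the LTR points in 7 of 8 libraries.

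Host genes of the intron peaks numbered 253, and 14 had peaks in more than 1 library. D2, the longest list, was among the libraries of all of these but Uimc1. Slco3a1, an organic anion transporter, held 3 (D1, D2, D3). Atxn1, the ataxin gene, Dscaml1, a neural adhesion molecule, Elavl1, which encodes the RNA-binding protein HuR, and Lmbr1, whose intron holds a limb enhancer of Shh, held 2 each. Each of these named genes holds a position shared by 2 libraries that is given again below. First introns held 80 of the 270.

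The strongest DNA transposon peak of D1 was a copy of MMAR1, a mouse mariner element, in intron 10 of Uimc1, a partner of the BRCA1 complex, with 116 tags and rank 101 in its library. It was followed by a MER2 copy in intron 57 of Macf1, a cytoskeletal linker, with 90 tags. In D2 a Tigger6b copy in intron 1 of Ankrd6 led with 108 tags. In D3 it was a MER115 copy in intron 1 of Grxcr1 with 68 tags, and in D4 a MER44D copy in intron 1 of Oxr1, a gene of oxidation resistance, with 90 tags.

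The strongest free peaks were a MER63D copy in intron 1 of Lipc, hepatic lipase, with 47 tags in F1, and a Charlie1a copy in intron 1 of Trio, a guanine nucleotide exchange factor, with 41 tags in F2. In F3 a Tigger5b copy in intron 4 of Elk4, an ETS factor, had 43 tags, and in F4 an Arthur1 copy between genes, nearest to Hapln1, had 36 tags. Their best ranks were 2783, 333, 1171 and 298 in F1 to F4 and 101, 693, 1007 and 252 in D1 to D4, so no DNA transposon peak was among the 100 strongest of its library.

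DNA transposon peaks were about as strong as other repeat peaks of their library. Their median was 40, 42, 26 and 26 tags in D1 to D4 and 16, 20, 20 and 16 in F1 to F4. The median of LINE, SINE and LTR peaks was 36, 42, 29 and 28 in D1 to D4 and 18, 20, 25 and 16 in F1 to F4. The log2 ratio was −0.08 ± 0.11, below 0 in males 1, 3 and 4 and at 0 in male 2 (exact sign-flip permutation p = 0.25, n = 4). Of the 569 peaks, 400 held at least 20 tags and 89 at least 50. Tag numbers were even in 60.3% to 73.3% of peaks under 60 tags, so tags are not independent counts.

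**Figure D5:**
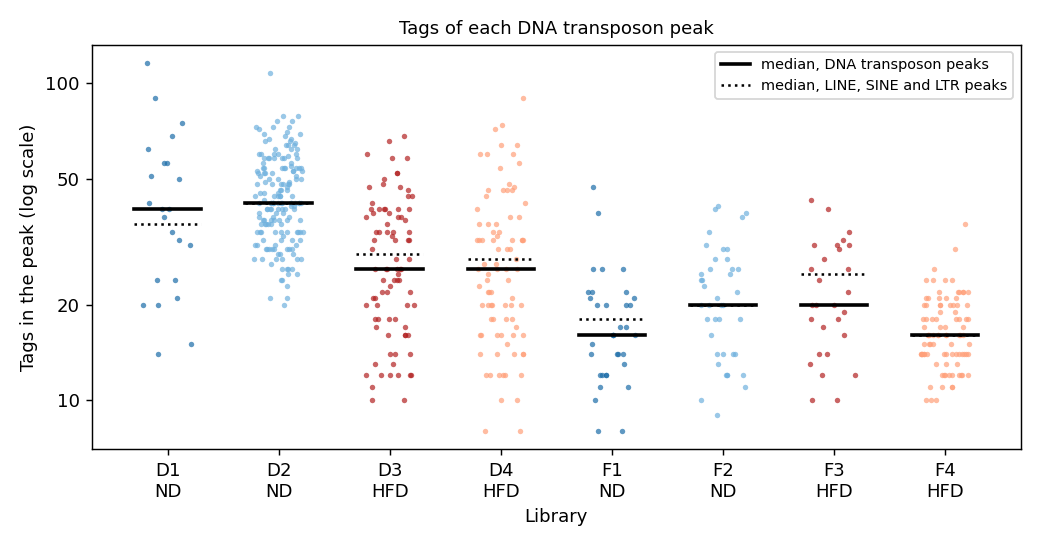
Tags of each DNA transposon peak (points, log scale) by library, coloured by male. Thick lines are medians of DNA transposon peaks (16 to 42) and dotted lines medians of LINE, SINE and LTR peaks (16 to 42). Tags are set by the depth of each library and are compared within a library only.

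Most positions were seen in a single library. Of the 569 peaks, 58 (10.2%) overlapped a peak of another library by at least 1 base. By library this was 1 of 23 (D1), 27 of 177 (D2), 6 of 86 (D3) and 7 of 87 (D4), and 1 of 35 (F1), 5 of 41 (F2), 4 of 28 (F3) and 7 of 92 (F4). LINE, SINE and LTR peaks overlapped another library in 13.8% ± 0.979 of cases (mean over males), DNA transposon peaks in 8.95% ± 4.30. The difference of −4.82 ± 3.42 points had the same sign in 4 of 4 males, from −0.996 in male 2 to −8.80 in male 1 (exact sign-flip permutation p = 0.125, the smallest possible, and 0.3 after adjustment over 24 comparisons). Much of the overlap rested on D2, the longest list. Its peaks were also the widest, at 400 bases against 170 to 249 in the other lists. Wider peaks meet another peak more easily, and the part of width was not tested. Of the 392 peaks outside D2, 21 overlapped D2 and 11 overlapped a library other than D2.

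The share was alike in the families, at 34 of 334 for hAT-Charlie (10.2%, interval 7.38% to 13.9%), 14 of 131 for TcMar-Tigger (10.7%, 6.47% to 17.1%) and 5 of 48 for hAT-Tip100 (10.4%, 4.53% to 22.2%; 95% Wilson intervals).

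At 12 positions the overlapping peak of the other library was also a DNA transposon, always under the same name, and the centres of the pairs lay a median of 25.5 bases apart. These 12 were D with D at 7 positions, D with F at 4 and F with F at 1, and D2 took part in 10. By superfamily 9 were hAT and 3 TcMar, and 5 lay in introns. The closest match between males was Tigger6b near Aptx, a DNA repair gene, at chr4:40633414-40633603 in D4 with 12 tags and at 40633416 to 40633604 in D3 with 18 tags. Others were RCHARR1 in Atxn1 (chr13, 79 tags in D2 and 46 in D4), MER63A near Runx3, a transcription factor gene (chr4, 50 tags in D2 and 38 in D3), and MER2 in Slco3a1 (chr7, 31 tags in D1 and 25 in D2). Between fractions, URR1B in Lmbr1 had 67 tags in D2 and 19 in F4, MER20 in Dscaml1 had 58 in D2 and 20 in F4, and MER58A in Elavl1 had 27 in D2 and 10 in F3. MER33 near Grin2b, a glutamate receptor gene, at chr6:136223269-136223668 was the single position shared as a DNA transposon by D (51 tags) and F (38 tags) of the same male, male 2.

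For the other 34 recurrent peaks the overlapping peak of the other library bore another name. These were 10 LINE, 4 LTR, 8 simple repeat, 4 low complexity and 12 unnamed peaks, with centres a median of 89 bases away. Peaks in 3 libraries were 4, and at none of them was the peak of the other libraries a DNA transposon. For example, the F3 RCHARR1 peak at chr7:72818733-72818958, with 40 tags, was called MTA_Mm, an LTR element, in F2 and F4, whose centres lay 34 and 32 bases away. The URR1B peak of D2 at chr9:71143789-71144188, near the water channel gene Aqp9, met L1_Mus3 peaks in F1 and F4.

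Within males, D and F shared few positions. Of 373 D peaks 3 met an F peak of their own male, all in male 2, and of 196 F peaks 6 met a D peak. The D library of male 2 also held the widest peaks, of 400 bases. By male the share of D peaks was 0% (0 of 23), 1.69% (3 of 177), 0% (0 of 86) and 0% (0 of 87), which allows shares of up to 13.0%, 3.49% and 3.45% in males 1, 3 and 4. LINE, SINE and LTR peaks were at 1.46% ± 0.455. The difference of −1.04 ± 1.07 points had the same sign in 3 of 4 males (exact sign-flip permutation p = 0.25, n = 4).

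Genes that arose from DNA transposons were looked at alongside. Of 30 such genes, 25 are named in the lists, and 10 had a peak in an exon, a UTR or another class of a mature transcript. In F1 there were 9 (36%, against 29.9% of all 20738 genes named). They were Cenpb, the centromere protein with a pogo-like ancestry, Pogk, Zbed3, Zbed6, Thap2, Thap4, Thap11, Thap12 and Zmym2. Cenpb had 44 tags in F1 and was also found in F3, and Pogz, a heterochromatin protein, in the 3′ UTR in D2 with 61 tags. In F3 and in D2 this was 1 of 25 genes (4%), where 4.84% (F3) and 1.46% (D2) of all genes had such a peak.

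The other libraries had none, where 0.251% to 0.998% of all genes had such a peak. Of 24 genes of transposon silencing 22 are named, and 6 had such a peak. In F1 these were Tdrkh, Dnmt3a, Trim28 and Setdb1 (18.2%, against 29.9% of all genes). Asz1, a piRNA pathway gene, had 56 tags in F2, Dnmt3a had 16 in F3, and Dnmt3l, a cofactor of DNA methylation in germ cells, had 40 in D4. Each was 1 of 22 genes (4.55%), where 0.289% (F2), 4.84% (F3) and 0.897% (D4) of all genes had such a peak. None of these genes hosted a DNA transposon peak in an intron.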

How the data were processed

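Sperm RNA of 4 Dnmt2-/- males was sequenced as a DNA-bound and a free library each, giving 8 peak lists. The authors used FastQC, cutadapt and Trimmomatic 0.36 to check and trim reads and Hisat2 to map them on GRCm38. HOMER 4.9 then called and annotated peaks library by library (mm10). The submitters' notes also name Salmon. The deposited score of a peak, made by the authors, has no stated unit. It was read as tags times a step per list, since 100% of scores under 100 are whole multiples within 0.2 tags. No peak was under 6 tags, or under 14 in D2, so weak transcripts are not seen. The deposited distance to the nearest gene start, in bases, was used as given. Column values left unused numbered 0. All peaks carry 1 strand, so sense and antisense cannot be told apart.

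DNA transposon peaks were taken by the class field, and this choice and all lists were made with earlier results of these data known. Shares are over annotated peaks, with 95% Wilson intervals. F and D were compared within males, both being made from each male, with the exact sign-flip permutation test (paired, 16 patterns, two-sided). Diets were compared by an exact permutation test (6 splits). Families and names with at least 40 peaks over the 8 lists were tested over all repeat classes with Benjamini-Hochberg adjustment. Nothing says whether libraries were prepared on separate days, so p-values measure the spread between these males. Alternatives were other denominators, tag minimums of 10 and 20, score weights, an unpaired test (70 splits), overlap of 50% of both peaks, and leaving out each male. The text names the 3 strongest peaks or the strongest of each library, the most recurrent positions, families and names with at least 40 peaks, the 10 most frequent names and their genes. Marker genes, Tigger7's lean, the intron excess in D and in F alone and the denominator of intron and intergenic peaks were chosen after their values were seen. Base composition and tandem tracts of all members were not analysed here. Letters were read from GENCODE M21 transcripts, and 4 of 4 stretches that RefSeq promoter windows also cover were equal. Alignments used Biopython 1.88. Python 3.11.15, pandas 2.3.3 and matplotlib 3.10.9 were used, and scripts were tested on simulated data.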

Additional observations from a re-analysis of the deposited data

Results flagged for a closer look

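In 26 checks of whether 1 of 4 libraries of a fraction stands away from the rest, 4 did. The checks reuse the same peaks and are not independent, so this count cannot be set against a rate expected by chance. D1 had 2.13% DNA transposons among DNA, LINE, SINE and LTR peaks, against 1.13% to 1.25% in D2, D3 and D4, on 23 peaks. URR1A made up 30.4% of the DNA transposon peaks in D1, against 5.65% to 9.30% in the other D libraries. TcMar-Tigger made up 17.1% in F2, against 25.0% to 26.1% in the other F libraries. Tigger7 was at 2.17% in F4, on 2 peaks, and at 0% in F1, F2 and F3.

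The TcMar-Tigger share of the DNA transposon peaks was higher in F than in D by 8.32 and 0.69 percentage points in the ND males and differed by −4.07 and −3.80 points in the HFD males. The gap between the diets, 8.44 points, was not tested.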

How the results depend on the processing

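Over 12 results and 84 alternatives, 68 kept the direction and the side of the 0.05 threshold and 15 changed direction. The remaining 1, URR1B over intron and intergenic peaks in the unpaired exact test, passed it (0.0351 points, p = 0.0286). The paired test and the diet test cannot pass 0.05, since their smallest p is 0.125 and 0.333. For these tests the side of the threshold was fixed in advance, and only the direction could change. The overlap of 50% of both peaks was also fixed in part. Peaks of D2 (400 bases) could not meet it with those of F1, F2, D3, D4 or F4 (170 to 190 bases). Within male 2 the share was thus 0 for DNA transposon peaks and for other repeats. The F minus D share, −0.0926 points, was 0.00399 over intron and intergenic peaks, and ran from −0.185 to 0.0549 when each male was left out, the last without male 1. The paired and the unpaired test (no replicate block) gave the same −0.0926, with p = 0.75 and p = 0.514 (exact). The HFD minus ND share in D, −0.119, became 0.0954 when weighted by score, and ran from −0.278 to 0.0404 on leaving out a male. In F it was 0.0462, and became −0.480 over interspersed repeats, −0.00163 at 20 tags or more and −0.109 over intron and intergenic peaks, with −0.155 to 0.248 on leaving out a male. For F minus D, hAT-Charlie ran from −0.131 to 0.0397 on leaving out a male, and hAT-Tip100 from −0.0101 to 0.0154. As a share of DNA transposon peaks, TcMar-Tigger turned to 0.286 and hAT-Tip100 to 0.885, and over intron and intergenic peaks to 0.00431 and 0.00461. The cause was not tested. The excess in introns ran from 7.43 to 14.95 points and the recurrence difference from −6.09 to −3.49 on leaving out a male. Tandem tracts and base composition were not run. With 23 to 177 peaks a library, counting error limits every share.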

Other observations

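On the X chromosome lay 11 of the 569 DNA transposon peaks (1.93%), against 1586 LINE, SINE and LTR peaks (3.54%). The share was below that of LINE peaks in 4 of 4 males, with a difference of −2.73 ± 1.99 percentage points, and about equal to that of SINE peaks, with a difference of −0.09 ± 2.80. The Y chromosome held 1 peak. MMAR1, the mouse mariner, gave a D2 peak of 51 tags in intron 1 of Ezh2, the histone methyltransferase of the Polycomb complex. Alpk2 held a pair of Charlie1a peaks in D4.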
